A study of Vitis vinifera with 12 samples.

Results

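Red globe fruit peel was compared with the peels of Bangalore blue and Dilkhush, to describe the genes whose transcript level set it apart from both. A row of the peel table was taken where Red globe differed at least 4-fold from each of the other cultivars in the same direction on the RPKM + 1 scale, and where the highest of the 3 peel columns reached 10 RPKM. RPKM scales reads to the length of the transcript and the size of the library. Rows named as transfer RNA were left out. These criteria picked 191 of the 25210 rows of the peel table, 105 higher and 86 lower in Red globe. They are called the Red globe-high and Red globe-low rows below. Their peel values chose them, so the peel values are a description and were not tested.

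The study sequenced messenger RNA from young leaves and fruit peels of Red globe, Dilkhush and Bangalore blue, 3 cultivars of Vitis vinifera. The series title names the accumulation of anthocyanin, the red to blue pigment of grape skin, as its subject. There were 2 libraries for each cultivar and tissue, 12 samples in 6 groups, with no treatment named. The labels do not give the ripeness of the berries, the number of plants, or whether the 2 libraries came from separate plants. The deposited tables hold 1 RPKM column for each cultivar and tissue, so a cultivar has 1 value per gene, with no replicate error and no p-value. A difference below therefore separates columns, and whether it exceeds the spread between plants was not tested.

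The skin of a grape berry is where pigments, stilbenes and much of the fruit's defence chemistry are made. Sugar reaches the ripening berry as sucrose, which cell wall invertases can split outside the cell and hexose transporters then carry in. Pathogenesis-related proteins, chitinases and lipoxygenases belong to the defence response of the grapevine, and several of them also accumulate in healthy ripening berries. Fewer cells of a type and less RNA per cell cannot be told apart in whole peel.

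Of 10014 rows that reached 10 RPKM in at least 1 peel column, 1.05% were Red globe-high and 0.859% Red globe-low. The same criteria applied to Bangalore blue picked 104 rows on the high side (1.04%) and 119 on the low side (1.19%). Applied to Dilkhush they picked 161 (1.61%) and 78 (0.779%). Transfer RNA rows took 33.6% of the summed RPKM in the Red globe column, 13.8% in Bangalore blue and 20.7% in Dilkhush. Over the 10014 rows the median difference on the log2 scale was -0.02 to Bangalore blue and -0.11 to Dilkhush. With columns set to an equal total without transfer RNA it was 0.04 to both, and 117 rows were then high and 80 low. The tissue label was looked at on GRIP22 alone, a ripening-induced gene that is itself a Red globe-low row. It lay between 1944 and 11936 RPKM in the peel columns and between 3.10 and 5.22 RPKM in the leaf columns. No other marker of tissue is compared here. Peel and leaf were normalized separately, so such levels are only roughly comparable. No row could be matched by symbol to the seed storage and the wax and cutin lists, so these tissue markers were not analysed here.

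Most Red globe-high rows were at a low level in the other peels. Their median level was 24.0 RPKM in Red globe, 1.67 in Bangalore blue and 1.71 in Dilkhush, and 20 of the 105 were below 1 RPKM in both other columns. Red globe levels spanned 10.25 to 18813 RPKM, with quartiles at 14.1 and 55.0, and 14 rows reached 100 RPKM. The difference to the nearer cultivar was at least 8-fold for 31 rows and at least 16-fold for 11. The Red globe-low rows had a median of 2.11 RPKM in Red globe, 29.7 in Bangalore blue and 38.4 in Dilkhush. In Red globe 29 of the 86 were below 1 RPKM and 7 were listed at 0, and 28 rows were at least 8-fold apart from the nearer cultivar. Bangalore blue and Dilkhush lay within 2-fold of each other for 82 of the 105 high rows and 48 of the 86 low rows, against 82.8% of all rows at 10 RPKM. These 2 cultivars were 4-fold or more apart for 8 of the high rows and 13 of the low rows. Dilkhush exceeded Bangalore blue in 57.1% of the high rows and 62.8% of the low rows, beside 55.7% of all rows.

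**Figure D1:**
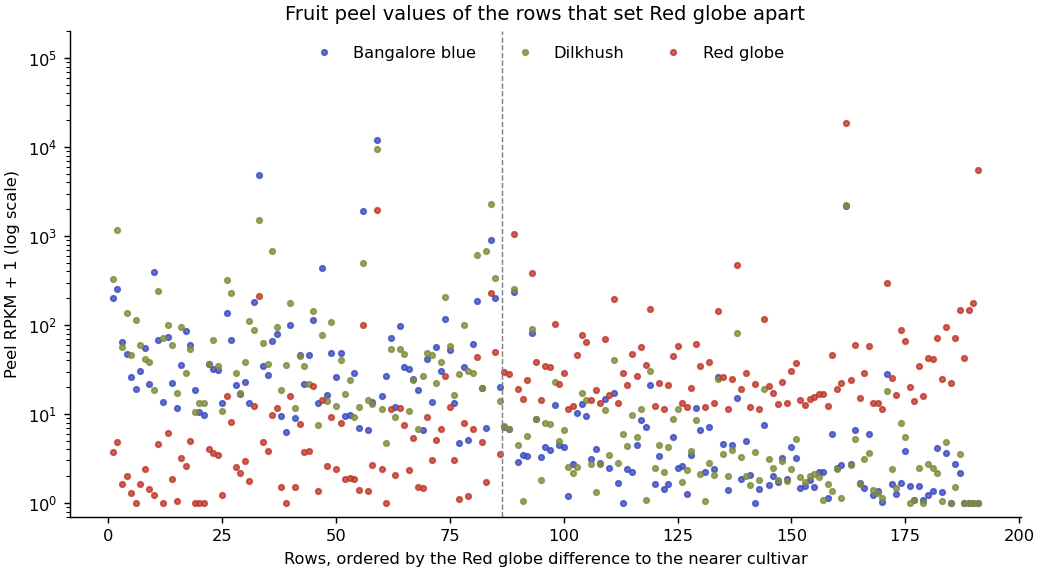
Peel RPKM + 1 (log scale) of the 191 rows in each of the 3 cultivars, ordered along the horizontal axis by the Red globe difference to the nearer cultivar; each point is the authors' value for 1 cultivar. Left of the dashed line are the 86 Red globe-low rows and right of it the 105 Red globe-high rows, which mostly lie between 10 and 100 RPKM in Red globe.

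**Figure D2:**
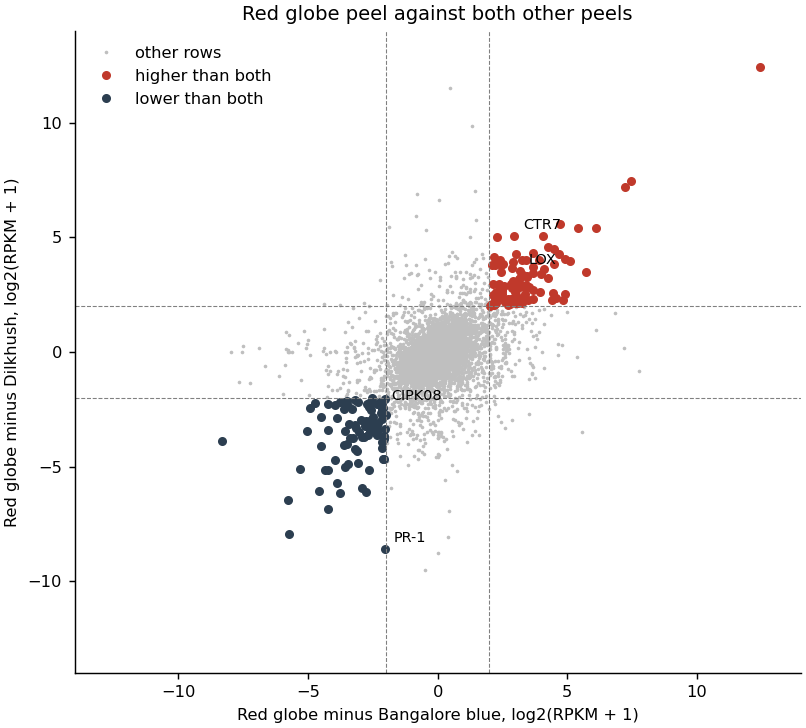
Difference of Red globe to Bangalore blue (horizontal) and to Dilkhush (vertical) in log2(RPKM + 1) for the 10014 peel rows that reached 10 RPKM, 1 point per row, with dashed lines at 4-fold. Red and dark points are the rows 4-fold higher or lower than both; PR-1 lies at the very edge toward Bangalore blue, at -2.03, and far from Dilkhush, at -8.62.

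A gene symbol was available for 12 of the 191 rows, 7 high and 5 low, and for 219 of the 10014 rows. The rest of the table is known by gene number only, and the named genes are thus a small sample of what set Red globe apart.

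A pair of the named high rows act in succession on sugar entering the cell. CWINV, a cell wall invertase that splits sucrose outside the cell, was 24.7 RPKM in Red globe, against 3.61 in Bangalore blue and 2.55 in the Dilkhush peel. HT5, a hexose transporter of the plasma membrane, was 28.0 RPKM in Red globe, against 4.004 in Bangalore blue and 1.03 in Dilkhush. Red globe was thus 5.57-fold above the nearer cultivar for CWINV and 5.80-fold for HT5, on the RPKM + 1 scale. In what follows a measured row is one with at least 1 RPKM in some peel column. Over all measured rows Red globe was highest in 31.8%, in the middle in 34.1% and lowest in 33.6%. Of 13 measured rows of hexose, sucrose and tonoplast sugar transporters and invertases, Red globe was highest in 5, in the middle in 2 and lowest in 6. After quantile normalization or with an equal total without transfer RNA it was lowest in 5. No row but CWINV and HT5 met the criteria, beside 1.91% of all rows at 10 RPKM. NIN1, another invertase, was 56.7 RPKM in Red globe, against 28.6 in Bangalore blue and 34.4 in Dilkhush. HT4, on the other side, was 0.32, 8.89 and 2.17 RPKM in the same order.

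In leaf Red globe was not the highest for either gene of this pair. HT5 was 7.92 RPKM in Red globe leaf, against 24.0 in Bangalore blue and 51.4 in Dilkhush, so that Red globe was the lowest of the 3. CWINV was 23.7 RPKM in Red globe leaf, against 12.4 in Bangalore blue and 40.3 in Dilkhush, with Red globe in the middle.

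LOX, a lipoxygenase that oxidizes polyunsaturated fatty acids, had the largest difference to the nearer cultivar of the 7 named high rows. It was 59.2 RPKM in Red globe, against 5.64 in Bangalore blue and 4.22 in the Dilkhush peel, 9.07-fold above the nearer cultivar. Its relative LOXO was also highest in Red globe, at 111 RPKM against 34.5 in Bangalore blue and 60.4 in Dilkhush, but short of 4-fold. LOXA was lowest there, at 255 RPKM against 840 and 374. In leaf LOX again stood highest in Red globe, at 13.01 RPKM against 4.92 in Bangalore blue and 4.24 in Dilkhush.

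CHIT3, a chitinase, was 11.7 RPKM in Red globe, against 0.57 in Bangalore blue and 0.73 in the Dilkhush peel, 7.33-fold above the nearer cultivar. In leaf it was highest in Red globe too, at 49.4 RPKM against 16.1 and 25.1. LOX and CHIT3 were the only rows among the 7 named high ones that were highest in Red globe in both tissues. Of the other measured chitinase rows, CHI4C at 36.5 RPKM, CHI4D at 12106 RPKM and LOC100232985, for which the reference gives the synonym CHIT1B, at 4.59 RPKM in Red globe all lay between the other cultivars. After quantile normalization or with an equal total without transfer RNA, Red globe was highest in 2 of the 4 chitinase rows.

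MLO11 belongs to the MLO family of membrane proteins, some of which plants need to be susceptible to powdery mildew. It was 11.8 RPKM in Red globe, against 0.73 in Bangalore blue and 0.82 in the Dilkhush peel, 7.03-fold above the nearer cultivar. Red globe was highest in 3 of the 4 measured MLO rows, beside 31.8% of all measured rows. It was highest in all 4 after quantile normalization or after all columns were given the same sum of the rows other than transfer RNA. MLO15 was 83.0 RPKM in Red globe, against 8.90 in Bangalore blue and 33.3 in Dilkhush, and MLO6 was 15.7, 8.51 and 6.16 RPKM in the same order, both short of the criteria. The fourth, the shared row of LOC100245251 and LOC100267554, has the synonyms MLO3 and MLO6. It was 47.7 RPKM in Red globe, between 26.4 in Bangalore blue and 50.5 in Dilkhush. In leaf MLO11 was lowest in Red globe, at 1.47 RPKM against 3.07 in Bangalore blue and 13.5 in Dilkhush.

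CTR7, named as a copper transporter, was 45.1 RPKM in Red globe, against 4.92 in Bangalore blue and 0.37 in the Dilkhush peel. The difference was 7.79-fold to Bangalore blue, the nearer cultivar, and 5.07 on the log2 scale to Dilkhush. Red globe was highest in 3 of the 4 measured rows CTR2, CTR6, CTR7 and CTR8, beside 31.8% of all measured rows. However, CTR6 was no more than 2.77 RPKM, and CTR2 was 5.06 RPKM in Red globe, 4.29 in Bangalore blue and 4.22 in Dilkhush. CTR1, a symbol also used in plants for a kinase of the ethylene response and so not counted here, was lowest in Red globe at 34.4 RPKM, with 36.0 in Bangalore blue and 35.3 in Dilkhush. In leaf the order of CTR7 was the other way round, with 1.31 RPKM in Red globe, against 6.65 in Bangalore blue and 9.41 in Dilkhush.

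Pathogenesis-related genes stood on both sides. PR10.9 was 18.0 RPKM in Red globe, against 1.91 in Bangalore blue and 3.52 in the Dilkhush peel, 4.20-fold above the nearer cultivar. PR10.7 was 3.92 RPKM in Red globe, against 58.1 in Bangalore blue and 52.8 in Dilkhush, 10.93-fold below the nearer cultivar. Both belong to the PR10 family of small intracellular proteins that accumulate after infection and stress. The 2 genes lie next to each other in the gene order of the reference assembly GCF_030704535.1, so Red globe was high in one gene and low in its neighbour. PR10 genes are close copies of each other, and how reads were shared among them is not given in the sources used here.

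Across the PR10 family Red globe was highest in 5 of 7 measured rows, under each of the scalings tried as well, beside 31.8% of all measured rows. PR10.2 was 5128 RPKM in Red globe, against 3523 in Bangalore blue and 1322 in Dilkhush, and PR10.3 was 424, 257 and 42.4 RPKM in the same order. PR10.4 and PR10.8 were highest at low levels, 3.81 and 4.09 RPKM in Red globe. PR10.5 lay in the middle at 25.7 RPKM, which makes PR10.7 the 1 family row in which Red globe was lowest. In leaf PR10.7 was 136 RPKM in Red globe, against 101 in Bangalore blue and 444 in Dilkhush, with Red globe in the middle. PR10.9 was below 1 RPKM in the Bangalore blue and Red globe leaves and 9.22 in Dilkhush.

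PR-1, on a row that carries the names PR-1 and PR1, was 0.71 RPKM in Red globe, against 5.98 in Bangalore blue and 670 in the Dilkhush peel. PR-1 proteins are secreted markers of the salicylic acid response in plants. The row was 4.09-fold below Bangalore blue, where both levels were below 10 RPKM, and 10 RPKM was reached in Dilkhush only. In leaf it was 320 RPKM in Red globe, against 363 in Bangalore blue and 1272 in Dilkhush, again highest in Dilkhush.

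**Figure D3:**
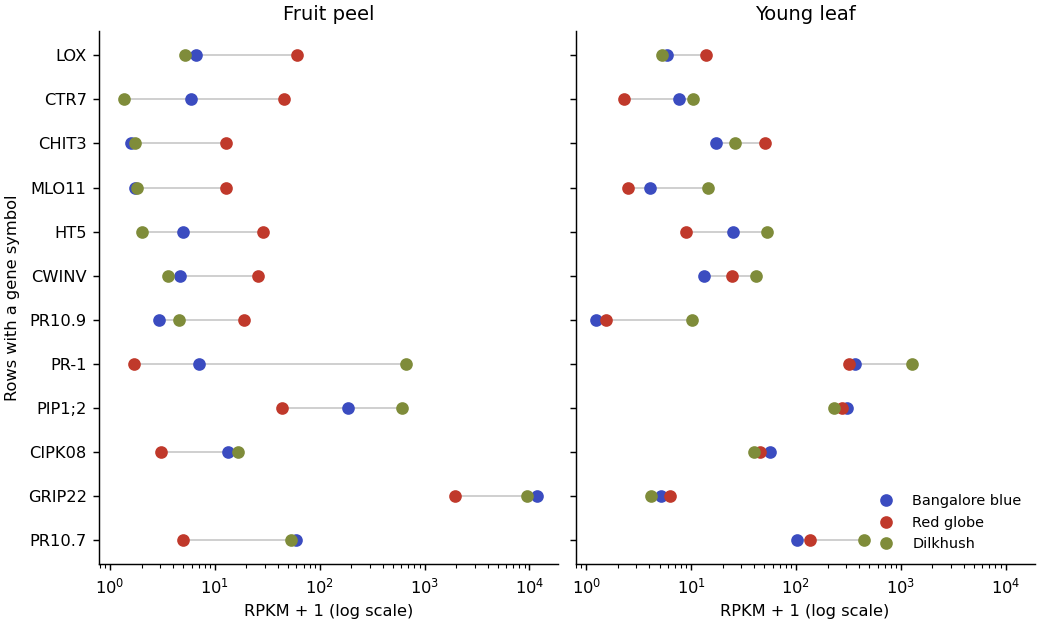
RPKM + 1 (log scale) of the 12 rows with a gene symbol in peel (left) and leaf (right), 1 point per cultivar, joined by a line for each row; the tissues were normalized separately. In peel Red globe lies at the right end for the upper 7 rows and at the left end for the lower 5, whereas in leaf it is the highest of the 3 for LOX, CHIT3 and GRIP22 and the lowest for CTR7, MLO11, HT5 and PR-1.

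Over all measured rows Red globe peel was the highest of the 3 in 31.8%. It was not the highest for any of the 9 measured rows of the aquaporin list, found by symbol. Dilkhush was the highest for each of them except TIP2;1. Bangalore blue was thus the highest for TIP2;1 only. PIP1;2, a plasma membrane aquaporin on a row it shares with LOC100265390, was 43.1 RPKM in Red globe, against 184 in Bangalore blue and 609 in Dilkhush, 4.20-fold below the nearer cultivar. Red globe was lowest in 5 of the 9 rows, beside 33.6% of all measured rows. It was in the middle in 4, beside 34.1%, and above Bangalore blue in each of the 4. After quantile normalization it was lowest in 6 and in the middle in 3. PIP2;1 was 401 RPKM in Red globe, against 1230 in Bangalore blue and 1776 in Dilkhush. TIP2;1, an aquaporin of the vacuole membrane, was 159 RPKM, 876 and 518 in the same order. PIP2, an aquaporin row outside the list, was 3.33 RPKM in Red globe, between 0.37 in Bangalore blue and 8.68 in Dilkhush. In leaf PIP1;2 was 273 RPKM in Red globe, against 303 in Bangalore blue and 230 in Dilkhush.

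GRIP22 was the most abundant of the Red globe-low rows. It was 1944 RPKM in Red globe, against 11936 in Bangalore blue and 9404 in the Dilkhush peel, 4.83-fold below the nearer cultivar. Of 9 measured GRIP rows Red globe was highest in 2, in the middle in 5 and lowest in 2, beside 31.8%, 34.1% and 33.6% of all measured rows. The highest were 4 after quantile normalization and 3 with an equal total without transfer RNA. GRIP4, on a row with MRIP1, was highest at 3537 RPKM against 578 and 1334, and GRIP61, on a shared row, was lowest at 637 RPKM against 1868 in Bangalore blue and 1610 in Dilkhush.

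CIPK08, a kinase of the family that calcium sensor proteins of the CBL type activate, was 2.07 RPKM in Red globe, against 12.4 in Bangalore blue and 15.5 in the Dilkhush peel, 4.35-fold below the nearer cultivar. It was the 1 of 19 measured CIPK rows to meet the criteria, beside 1.91% of all rows at 10 RPKM. Red globe was highest in 7 of the CIPK rows and lowest in 7, beside 31.8% and 33.6% of all measured rows. With an equal total without transfer RNA it was highest in 8 and lowest in 4, and after quantile normalization in 8 and 6. In leaf CIPK08 was 44.2 RPKM in Red globe, against 54.9 in Bangalore blue and 38.5 in Dilkhush. Of the 5 named low rows, PR-1 was the only one in which Red globe was also lowest in leaf, at 320 RPKM against 363 in Bangalore blue.

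Of the rows without a symbol, 2 on each side are given by their difference to the nearer cultivar. LOC100246060 reached 5553 RPKM in Red globe, with a listed 0 in each of the other peels. LOC100246921 reached 174 RPKM there, again with a listed 0 in the others. Each of these gene numbers also stands on a second peel row together with another gene number. That second row was 38.9 RPKM in Red globe, against 22.6 in Bangalore blue and 221 in Dilkhush for LOC100246060. It was 2.11, 1.96 and 1.27 RPKM in the same order for LOC100246921. How reads were divided between such rows was not tested.

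This held for most of the rows seen in Red globe alone. Of the 5 high rows listed at 0 in both other peels, 4 had a gene number that also stands on another row, as had 13 of all 191 rows (6.81%) and 2.3% of the 10014 rows at 10 RPKM. The fifth, LOC104877680, was 21.4 RPKM in Red globe peel. It had 1 row only, and it repeated in leaf, with 15.4 RPKM in Red globe, 0.29 in Dilkhush and a listed 0 in Bangalore blue. Without rows of several names and rows with a name that also stands on another row, 89 high and 73 low rows were left.

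The unnamed low rows with the largest difference were LOC100250853 and LOC100254233. LOC100250853 was 2.72 RPKM in Red globe, against 202 in Bangalore blue and 324 in the Dilkhush peel. LOC100254233 was 3.79 RPKM in Red globe, against 256 in Bangalore blue and 1175 in Dilkhush. Both are protein-coding in the reference, on rows of their own, and both were far below the other peels while still detected in Red globe. LOC100265368, chosen after its values were seen because the reference lists gene ontology terms for it, among them glucan hydrolysis and defence response, was 14.1 RPKM in Red globe, against 0.66 in Bangalore blue and 0.63 in Dilkhush.

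The high rows took 4.24% of the summed RPKM without transfer RNA in Red globe, against 0.38% in Bangalore blue and 0.38% in Dilkhush. Most of this came from a single pair of rows, the row LOC100257132,LOC100260620 and LOC100246060. The former was 18813 RPKM in Red globe, against 2165 in Bangalore blue and 2214 in Dilkhush, and its 2 gene numbers stand on separate rows in the leaf table. Without this pair the share was 0.83% in Red globe, 0.087% in Bangalore blue and 0.10% in Dilkhush. The low rows took 0.40% in Red globe, 3.19% in Bangalore blue and 2.70% in Dilkhush.

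Rows on either side of the threshold had similar values. LOC100242860, LOC100253958 with LOC100264385, and LOC100253660 were just inside on the high side, between 4.03-fold and 4.19-fold, and LOC100242382, LOC100267722 and LOC104881857 with LOC104881858 just outside, between 3.91-fold and 3.95-fold. On the low side LOC100261912, LOC100264626 and LOC100252479 were just inside, between 4.001-fold and 4.04-fold. Just outside were LOC100245740, LOC104880387 and LOC100245219, between 3.93-fold and 3.995-fold. The first of these is HsfA2 by its synonym in the reference, a heat shock transcription factor, at 3.65 RPKM in Red globe, against 17.6 in Bangalore blue and 23.4 in Dilkhush.

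The leaf table was not used to choose the rows and shows how far they set Red globe apart elsewhere in the plant. A leaf row of the same, unrepeated name existed for 88 high and 74 low rows, and for 9406 of the 10014 rows at 10 RPKM in peel. Of the 88 high rows, 9 were also at least 4-fold higher in Red globe leaf than in both other leaves, with 10 RPKM in the highest leaf column, beside 0.489% of the 9406 rows. None of the 88 was 4-fold lower. Of the 74 low rows, 4 were also 4-fold lower in Red globe leaf (5.41%), beside 0.702% of the 9406 rows, and none was 4-fold higher. At 2-fold, 15 high rows were higher (17.0%, beside 3.38%) and 3 lower (3.41%, beside 4.42%). Of the low rows 6 were lower at 2-fold (8.11%) and 5 higher (6.76%).

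The median over the high rows differed from that over all rows for Bangalore blue and less so for Dilkhush. The median leaf difference of the high rows, Red globe minus Bangalore blue, was 0.56 on the log2 scale, beside 0.05 over the 9406 rows, whereas the median to Dilkhush was -0.03, beside 0.04. For the low rows the medians were 0.02 and -0.005. Red globe was the highest of the 3 leaves in 43.2% of the high rows and in 43.3% of the 9406 rows. Many of the rows were little used in leaf. The highest leaf column was below 1 RPKM for 11.4% of the high and 12.2% of the low rows, beside 1.04% of the 9406, and it reached 10 RPKM for 42.0%, 63.5% and 89.6%.

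The 13 rows that set Red globe apart in both tissues are given by gene number, chosen after their values were seen. LOC100257309 reached 18.9 RPKM in Red globe peel, where Bangalore blue had 0.57 and Dilkhush was listed at 0. In leaf it was 30.9 RPKM in Red globe, against 0.13 in Bangalore blue and 0.35 in Dilkhush. LOC104877544 and LOC104879414 had the same form, at 12.4 and 12.9 RPKM in Red globe peel, 17.5 and 14.1 in Red globe leaf, and below 1 RPKM in every other column of either tissue, as was LOC104877680 above.

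The other high rows of this kind reached 1 RPKM in at least 1 of the other cultivars in both tissues. LOC100245608 was 21.0 RPKM in Red globe, against 1.67 in Bangalore blue and 0.13 in the Dilkhush peel, and 40.1, 4.76 and 0.49 RPKM in the leaves. LOC100251711 was 36.5, 2.22 and 4.18 RPKM in peel and 46.4, 8.59 and 7.68 in leaf, LOC100242041 was 68.5, 13.7 and 10.18 RPKM in peel and 51.3, 9.96 and 7.01 in leaf, always in the order Red globe, Bangalore blue, Dilkhush. LOC104882052 and the shared row of LOC100254297 and LOC104882087 reached 148 and 24.0 RPKM in Red globe peel.

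On the low side, 2 of the 4 were long noncoding RNA genes in the reference. LOC100264432 was 0.84 RPKM in Red globe, against 21.0 in Bangalore blue and 59.1 in the Dilkhush peel, and 0.65, 21.0 and 39.9 RPKM in the leaves. LOC104881717 was 0.049, 10.73 and 16.1 RPKM in peel and 0.74, 8.86 and 27.8 in leaf. The remaining rows, LOC100240884 and LOC100244413, are protein-coding and were 3.81 and 8.77 RPKM in Red globe peel, against at least 33.9 RPKM in both others. Over both directions 7 of the 191 rows were long noncoding RNA genes (3.66%), beside 1.498% of the rows at 10 RPKM, and 16 had a gene number that the reference does not list (8.38%), beside 3.12%.

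**Figure D4:**
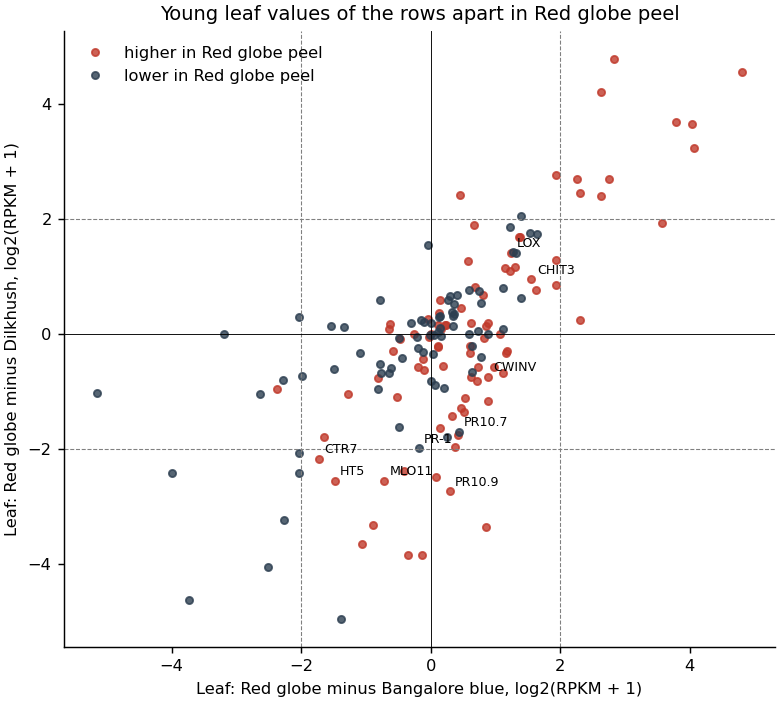
Leaf difference of Red globe to Bangalore blue (horizontal) and to Dilkhush (vertical) in log2(RPKM + 1) for the 88 Red globe-high and 74 Red globe-low peel rows with a leaf row, dashed lines at 4-fold. The 9 high rows with a like difference in leaf lie at the upper right, while CTR7, HT5 and MLO11 lie at the lower left, on the other side of both cultivars.

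Some rows had the opposite sign in the tissues. Of the 162 rows, 8 were at least 2-fold apart from both other leaves in the opposite direction, with 10 RPKM in the highest leaf column, 3 of them high and 5 low in Red globe peel. These are the 3.41% of the high and 6.76% of the low rows given above, beside 4.42% and 3.38% of all rows. LOC100250853, at 2.72 RPKM in Red globe peel, was 782 RPKM in Red globe leaf, against 268 in Bangalore blue and 230 in Dilkhush. LOC100248011 was 7.02, 66.1 and 227 RPKM in peel and 302, 96.4 and 89.3 in leaf. HT5, above, was the 1 row of the 8 with a symbol.

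Positions along the chromosomes were read only as gene order in the reference assembly, as no source used here names the genome build of the files. Of 170 rows that could be placed, 10 lay next to another of them (5.88%), beside 1.24% of 9536 placed rows at 10 RPKM, and 18 lay within 3 genes of one (10.59%, beside 3.6%). The 10 formed 5 pairs, 3 of the same and 2 of opposite direction. LOC100242852 and LOC100247990 were 41.8 and 57.2 RPKM in Red globe peel, against at most 1.71 and 10.41 in the other peels. LOC100252818 and LOC100254562 were 15.6 and 13.4 RPKM, against at most 1.22 and 2.30. LOC100254233 stood beside LOC100852666, which was 5.23 RPKM in Bangalore blue, listed at 0 in Red globe and 34.2 in Dilkhush. The opposite pairs were PR10.7 with PR10.9 and LOC100251711 with LOC100256846, which was 2.16 RPKM in Red globe, against 34.1 in Bangalore blue and 93.5 in Dilkhush. Whether neighbouring rows shared reads was not tested.

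None of the 7 measured anthocyanin rows, 5 early flavonoid rows and 7 MYB and bHLH regulator rows found by symbol met the criteria, beside 1.91% of the 10014 rows at 10 RPKM. A count of 0 among so few rows is near that share. Pigment genes known by gene number only were not examined. Red globe lay between the other cultivars in 5, 5 and 7 of the listed rows, and was highest in the other 2, UFGT and F3'H. Over all 16627 measured rows it was highest in 31.8%, in the middle in 34.1% and lowest in 33.6%, the rest being ties. The middle count was 4 of 5 for the early flavonoid rows after quantile normalization, and 6 of 7 for the regulators with an equal total without transfer RNA. The row with the largest difference to the nearer cultivar was CHS3, a chalcone synthase, 2.24 on the log2 scale below Bangalore blue and 3.13 above Dilkhush.

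Stilbene synthases, which make resveratrol, were highest in Red globe in all 3 measured rows, under each scaling as well, beside 31.8% of all measured rows. All 3 were short of the criteria against Bangalore blue. The larger STS row differed by 1.72 on the log2 scale from Bangalore blue and VINST1 by 1.64. Of the 5 isoflavone reductase-like rows Red globe was highest in IFRL4 and IFRL5, both short of the criteria, in the middle in IFRL6 and IFRL3 and lowest in IFRL1. IFRL4 was 61.0 RPKM in Red globe, against 5.80 in Bangalore blue and 18.4 in Dilkhush. IFRL5 was 1171 RPKM in Red globe, 322 in Bangalore blue and 399 in Dilkhush, and IFRL6 was 157 RPKM, between 12.7 and 189. IFRL3 and IFRL1 were below 2 RPKM in every peel.

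Of 20 gene lists with a measured row, 12 had no row that met the criteria, beside 1.91% of the 10014 rows at 10 RPKM. Each of the 12 had at most 7 measured rows, so that a count of 0 is near that share. The rows at 10 RPKM with the largest difference to the nearer cultivar in these lists were as follows. MYB14, a regulator of stilbene synthases, was 4.71 RPKM in Red globe, between 12.5 in Bangalore blue and 1.25 in Dilkhush, and the proanthocyanidin gene LAR2 was 14.3 RPKM, between 3.92 and 61.8. Red globe was lowest for FLS1, the flavonol synthase, 0.85 below the nearer cultivar on the log2 scale, for the pectate lyase PL1, 0.80 below it, and for the photosystem II gene PSBP1, 0.55 below it. It was in the middle for RD22-C, at 1.04 RPKM, for CCD4b (LOC100252859), a carotenoid cleavage dioxygenase, at 13.5 RPKM, and for the triterpene oxidase gene CYP716A15, at 105 RPKM. For CCOAMT (LOC100233087), of lignin synthesis, it was highest by 0.43, and for MYBPA1, a regulator of proanthocyanidin genes, by 0.28. FAOMT and LDOX, of anthocyanin synthesis, F3H of the early flavonoid pathway, 4CL of phenylpropanoid synthesis and LOC100853472, with both MybA1 and MybA3 among its synonyms, all had Red globe in the middle. It was lowest for PSBP2, by 0.46, and for HSP101, a heat shock protein, by 0.62.

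**Figure D5:**
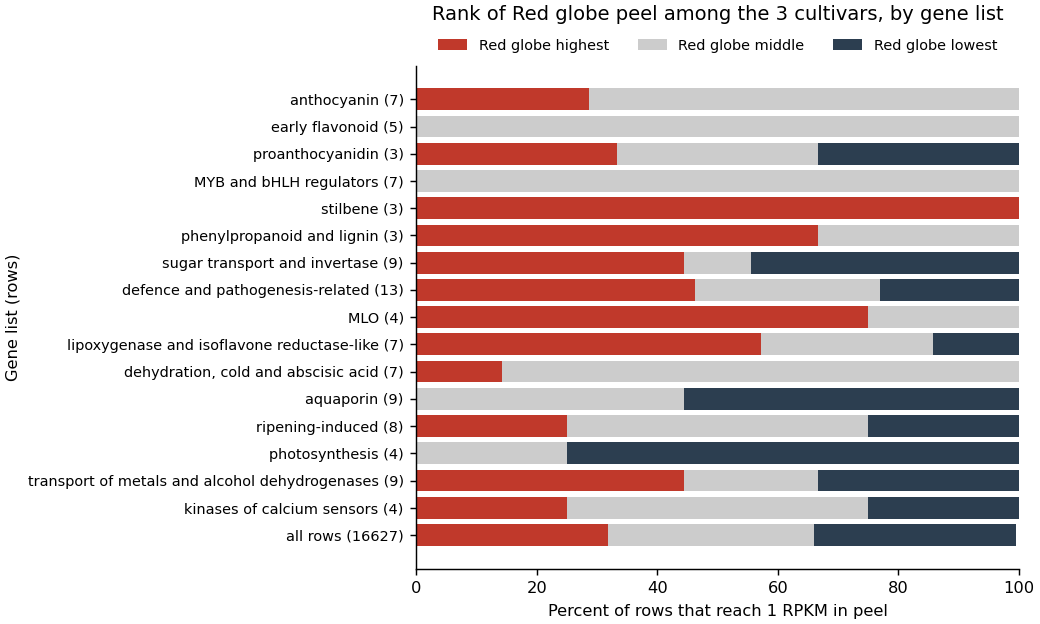
Share of measured peel rows (at least 1 RPKM in some peel column) in which Red globe had the highest, middle or lowest value of the 3 cultivars, for each gene list with at least 3 measured rows (number of rows in parentheses) and for all 16627 rows. Red globe is in the middle for most pigment rows, highest for all stilbene rows and never highest for the aquaporins, where Dilkhush is highest except for TIP2;1.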

How the data were processed

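Strand-specific mRNA libraries were prepared from total RNA, per the labels' protocols. The submitters' processing notes list TopHat2 2.1.1 and Cufflinks 2.2.1 without saying what each did. Which genome build and annotation were used, how reads with several alignments were treated and how a group of 2 libraries became 1 column is not given in the sources used here. Deposited values are RPKM, per the file headers, in 1 table for peel (25210 rows) and 1 for leaf (25253 rows), normalized separately, with 3 cultivar columns each. Columns were tied to groups by initials matching the sample titles. Low values showed no steps of whole reads: of 2331 low rows 0.129% shared the commonest Red globe to Bangalore blue ratio to 4 decimals. Depth is therefore unknown, so values carry no intervals, and a 0 is only what the table lists.

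Differences were taken on log2(RPKM + 1), which understates changes of low genes, with Python 3.11.15, numpy 2.4.6 and pandas 2.3.3. The criteria were run on simulated columns with planted 8-fold changes and an assumed level of noise. The spread between libraries is unknown, so this gives no error rate for the 4-fold criteria in these data. No test between cultivars was possible with 1 value a group. The rows, gene lists and criteria were chosen with earlier results of these data known. The floor of 10 RPKM was applied to the highest of the 3 columns. Named genes were all rows with a symbol, 2 unnamed rows each way by difference to the nearer cultivar, up to 2 rows of each list without a row that met the criteria, pairs next to each other in the reference, and the 3 rows each way on either side of the threshold. Further rows of the lists and families, and rows named for their leaf values, were chosen after their values were seen. The 23 lists were matched by symbol or synonym, and 9 families around named rows were drawn up after the files were seen. Gene order and synonyms were taken from RefSeq's annotation of GCF_030704535.1, which gives no product descriptions. No sequences are shown.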

Additional observations from a re-analysis of the deposited data

Results flagged for a closer look

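Below are 14 rows in which Red globe lay on one side of both other cultivars in peel and on the other side in leaf. They are the rows with this pattern among those with a symbol, those named above by difference, threshold or neighbour, and the 8 rows at least 2-fold apart in leaf. They are a part of the rows with this pattern. Red globe was the lowest of the 3 leaves in 19 of the 88 high rows (21.6%), beside 36.6% of the 9406 rows. It was the highest in 27 of the 74 low rows (36.5%), beside 43.3%. The pattern was thus no commoner than these positions over all rows. The difference between tissues was not tested, and each side rests on 1 value per cultivar. Values are the leaf difference to the nearer cultivar in log2(RPKM + 1).

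For genes high in Red globe peel, the leaf difference was -1.73 for CTR7, -1.48 for HT5 and -0.72 for MLO11. It was -1.64 for LOC100259590, which was 46.1 RPKM in Red globe peel and 8.997 in Red globe leaf, and -1.05 for LOC100267439, at 55.0 and 1.21 RPKM. It was -0.10 for LOC100253660, at 1056 and 1.35 RPKM.

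For genes low in Red globe peel, the leaf difference was 0.26 for GRIP22, which did not exceed 5.22 RPKM in any leaf. It was 1.54 for LOC100250853 and 1.64 for LOC100248011. It was 0.41 for LOC100264626, which was 0.95 RPKM in Red globe leaf, and 0.048 for LOC100252479, at 279 RPKM there. It was 1.39 for LOC100245367, which was 0.63 RPKM in Red globe peel and 40.0 in Red globe leaf, 1.28 for LOC100242506, at 0.28 and 108 RPKM, and 1.22 for LOC104879899, listed at 0 in Red globe peel and at 58.0 RPKM in leaf.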

How the results depend on the processing

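The 105 high and 86 low rows became 121 and 138 with a pseudocount of 0.1, 31 and 91 where 2 columns had to reach 5 RPKM, 156 and 309 with 4-fold to the mean of the other cultivars, and 31 and 28 at 8-fold. The filter of 5 RPKM in 2 columns removes rows expressed in Red globe alone by construction: of its 122 rows 114 were shared with the main 191. It also removed PR10.9, CWINV, HT5, MLO11, CHIT3 and CTR7. No floor, quantile normalization, equal medians, an equal total without transfer RNA and leaving out shared names kept both counts within 1.5 times. Leaving out rows of several names and rows with a name on another row removed PIP1;2, PR-1, LOC100246060 and LOC100246921. With the floor applied to the higher of each pair, chosen after the data were seen, 65 low rows remained and PR-1 was lost. The 9 high rows also high in leaf became 15 with no floor, 2 with 5 RPKM in 2 columns, 14 against the mean and 4 at 8-fold. The 4 low rows also low in leaf became 10 with a pseudocount of 0.1, 13 with no floor, 7 with 5 RPKM in 2 columns, 43 against the mean and 1 at 8-fold; the cause was not tested. Of 16 named rows none changed direction under the alternatives run, but these rows were chosen for a 4-fold difference, so a change was hardly possible. In 13 of 144 combinations of a named row and an alternative the row no longer met the criteria. Single libraries could not be left out, since the columns hold both. No paired analysis was possible because the columns carry no replicate number.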
